A study of Mus musculus with 6 samples.

Results

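The genes described here encode secreted regulators of Wnt signalling. They are 4 secreted Frizzled-related proteins named Sfrp (Sfrp1, Sfrp2, Sfrp4 and Sfrp5), the related Frzb, 2 Dickkopf genes (Dkk2 and Dkk3), Wif1, and 2 R-spondins (Rspo2 and Rspo3). They were chosen by symbol, and all 10 were found among the 49315 genes of the count files. Of these, 9 had enough reads to be tested for a difference between genotypes. The study compared 3 fibroblast lines homozygous for a knock-in MDMX allele, MDMX-SG (W201S and W202G), with 3 lines of wild-type MDMX. The MDMX-SG substitutions break the contact of MDMX with the kinase CK1-alpha, and the question was which transcripts they affect. All 6 lines also lacked p53, the main target of MDMX, and were untreated C57BL/6 mouse embryo fibroblasts at passage 4, grown in DMEM with serum. Each line came from 1 embryo, so SG1, SG2 and SG3 are set against WT3, WT9 and WT11 as 3 embryos a genotype. Sources used here did not give embryo age, litter or culture day. Values by line are listed in the order SG1, SG2, SG3 for SG and WT3, WT9, WT11 for WT unless a line is named.

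Wnt proteins bind Frizzled receptors and the coreceptors LRP5 and LRP6, which spares beta-catenin from a degradation complex in which CK1-alpha makes the first phosphorylation. Secreted Frizzled-related proteins carry a domain like that of Frizzled and bind Wnt proteins outside the cell, as does WIF1 through a domain of its own. Dickkopf proteins such as DKK2 bind the LRP coreceptors, whereas DKK3 is a divergent family member. R-spondins act the other way: through LGR receptors they remove the ligases ZNRF3 and RNF43 from the membrane and so raise Frizzled levels. Several of these genes are patterned in limb, skin and skeletal mesenchyme of the embryo.

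The libraries held between 49317925 and 65457242 counts. All 11 fibroblast markers examined were counted in every line, with a summed level of 15020 to 17940 CPM (read counts scaled by library size) among SG and 16590 to 17060 CPM in WT lines. Of these, Thy1 was past the threshold and lower in SG lines. In sex-linked RNA 2 lines, SG1 and WT9, differed from the rest, with Xist at 402 and 343 CPM (scaled by library total alone); the other 4 lines had 0.562 to 0.71. Summed macrophage markers were highest in SG3 (67.04 CPM) and lowest in WT11 (12.6 CPM), with 28.7 to 35.7 CPM elsewhere. Mdm4, which encodes MDMX, averaged 60.04 ± 3.36 CPM (SG) and 60.4 ± 2.33 CPM (WT; SD, n = 3). A change of 2 codons is not visible in a gene-level count. Trp53 transcript was counted at 71.4 ± 0.55 CPM (SG) and 70.6 ± 2.19 CPM (WT) although the labels give p53-/-, and a gene-level count does not show which exons gave the reads. Neither these nor Mdm2 and Csnk1a1, which encodes CK1-alpha, passed the threshold. In RNA from a whole culture, fewer cells of a type and less RNA per cell cannot be told apart.

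RefSeq promoter windows were matched for 5 of the 10 genes (GRCm38.p6), from 250 bases before to 50 bases after the start site. The windows of 4 are shown, because they include the well-expressed gene with the widest difference between genotypes (Dkk2) and 3 members of the Frizzled-related family that stood at very different levels (Sfrp2, Frzb and Sfrp5). The windows lie at chr3:132085042-132085341 (plus strand), chr3:83766071-83766370 (plus), chr2:80447347-80447646 (minus) and chr19:42202203-42202502 (minus), in the order Dkk2, Sfrp2, Frzb, Sfrp5, and are written from 5′ to 3′ on the gene's strand. Capitals mark the core of the TCF/LEF motif, CTTTGA, searched on both strands (TCAAAG on the other).
Dkk2: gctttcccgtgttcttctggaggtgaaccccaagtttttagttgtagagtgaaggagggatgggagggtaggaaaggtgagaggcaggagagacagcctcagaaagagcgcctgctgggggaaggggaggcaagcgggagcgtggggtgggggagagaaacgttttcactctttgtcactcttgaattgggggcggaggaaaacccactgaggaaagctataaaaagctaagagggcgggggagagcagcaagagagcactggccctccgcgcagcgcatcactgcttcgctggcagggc
Sfrp2: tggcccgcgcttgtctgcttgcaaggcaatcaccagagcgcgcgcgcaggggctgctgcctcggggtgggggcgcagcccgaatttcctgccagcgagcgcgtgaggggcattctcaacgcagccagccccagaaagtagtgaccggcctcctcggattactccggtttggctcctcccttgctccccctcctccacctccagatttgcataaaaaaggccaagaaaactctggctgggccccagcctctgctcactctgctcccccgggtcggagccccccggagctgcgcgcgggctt
Frzb: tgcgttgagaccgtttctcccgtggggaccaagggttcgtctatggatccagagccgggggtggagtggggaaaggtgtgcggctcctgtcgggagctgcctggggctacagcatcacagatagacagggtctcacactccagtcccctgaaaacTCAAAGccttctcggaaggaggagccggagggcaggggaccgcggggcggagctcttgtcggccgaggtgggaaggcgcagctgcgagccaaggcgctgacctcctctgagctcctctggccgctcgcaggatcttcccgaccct
Sfrp5: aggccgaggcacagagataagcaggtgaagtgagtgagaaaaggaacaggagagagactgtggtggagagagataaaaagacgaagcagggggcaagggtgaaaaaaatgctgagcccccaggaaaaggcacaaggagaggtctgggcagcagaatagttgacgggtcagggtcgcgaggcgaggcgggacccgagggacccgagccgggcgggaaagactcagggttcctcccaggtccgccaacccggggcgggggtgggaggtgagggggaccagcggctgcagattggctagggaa

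The motif was found in the Frzb window alone among the 5, starting 95 bases before the RefSeq start site on the opposite strand. As counted, however, the Frzb gene begins at chr2:80447625 (minus strand), near the upstream end of that window. Most of the Frzb window, with the motif, thus lies inside the counted gene and not upstream of it. The motif occurred in 16% of all 32851 windows of that length. The number of CpG dinucleotides was 11 in the Dkk2, 22 in the Sfrp2, 20 in the Frzb and 15 in the Sfrp5 window, against a median of 7 over all windows. The window of the silent Sfrp5 thus held more CpG than that of Dkk2, which was among the most abundant transcripts of the group. These are descriptions of sequence, and no binding or methylation was measured.

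The Dickkopf transcripts Dkk2 and Dkk3 made up most of the group's RNA. On a scale per gene length (RPKM, CPM divided by length in kilobases), Dkk2 stood at 15.2 ± 7.79 in SG and 35.7 ± 2.64 in WT lines, and Dkk3 at 32.2 ± 10.9 and 28.2 ± 4.19. Sfrp2 (6.69 ± 1.64 RPKM in SG and 7.92 ± 1.39 RPKM in WT), Sfrp1 (5.34 ± 0.695 and 3.61 ± 0.552), Rspo2 (5.44 ± 3.05 and 4.41 ± 0.806) and Rspo3 (5.01 ± 1.95 and 4.6 ± 1.19) formed a middle tier. Within that tier the ranges of neighbouring genes overlapped in SG lines, and the order of the 4 genes was not the same from line to line. Among WT lines every Dkk2 value (33.2 to 38.5 RPKM) lay above every Dkk3 value (25.3 to 33.02 RPKM), whereas in SG lines their ranges overlapped. Frzb lay lower, at 0.974 ± 0.0601 RPKM in SG and 1.13 ± 0.145 RPKM in WT. Sfrp4 and Wif1 were near the limit of detection, at 0.196 ± 0.0515 and 0.0904 ± 0.00831 RPKM in SG and at 0.0833 ± 0.0283 and 0.0346 ± 0.00869 RPKM in WT lines. Sfrp5 had 0 reads in every line, which allows a level of up to 0.0459 to 0.06 CPM by line (3 counts a library, counting error only).

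**Figure D1:**
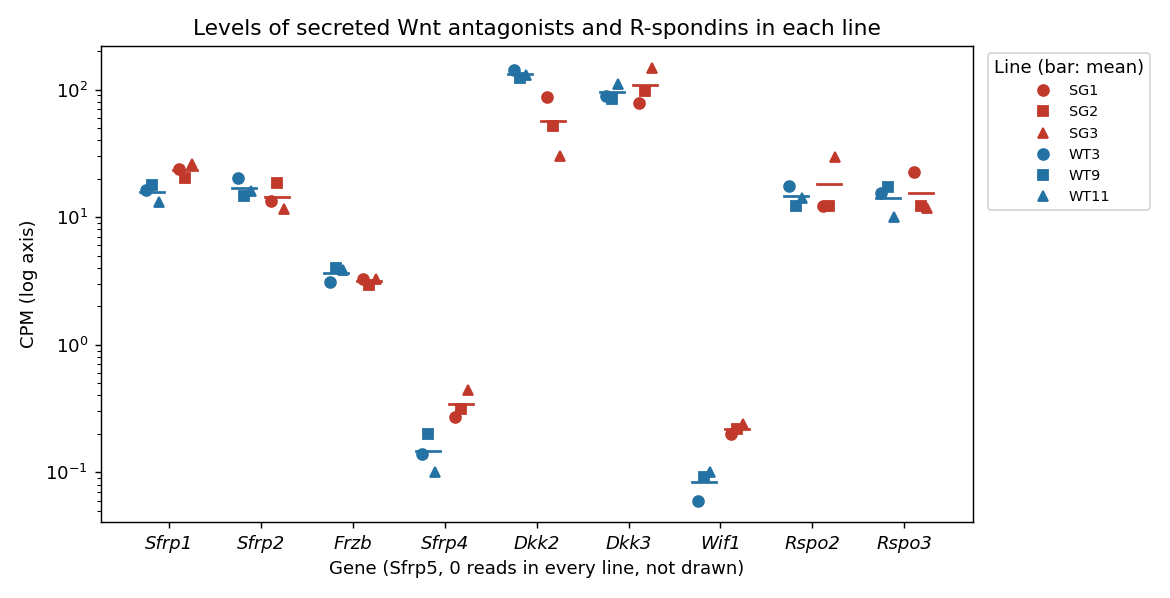
Level of each gene in each line, in CPM on a log axis, with SG lines in red, WT lines in blue and a bar at the mean of each genotype (n = 3). Dkk2 and Dkk3 sit highest, Sfrp4 and Wif1 lowest, and the 3 SG points of Dkk2 (30.04 to 87.2 CPM) lie below the 3 WT points (123 to 143 CPM).

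Across genotypes, no gene of the group passed the threshold of an adjusted p of 0.05 over all genes. In edgeR's quasi-likelihood test 0 of 9 were higher and 0 lower, where 1.90% of all 16068 tested genes passed (306 genes), 0.809% higher and 1.10% lower in SG. DESeq2 called 1 of the 9 (Sfrp1), where it called 5.77% of all tested genes, and limma-voom called 0, where it called 2.03%. Of the 9, 7 had enough reads in every line, while Sfrp4 and Wif1 entered the test only through their SG lines. Among the 7, the CPM of the genotypes did not overlap for 2 (Sfrp1 and Dkk2), against 21.2% of all tested genes (10.0% higher and 11.2% lower in SG), and the same 2 had an unadjusted p under 0.05, against 15.5%. The 7 had a median log2 fold change of 0.12, with 4 above 0 and 3 below, and the median of all tested genes was 0.002. Sfrp4 and Wif1, which had to be high in SG lines to be tested, are left out of these counts.

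**Figure D2:**
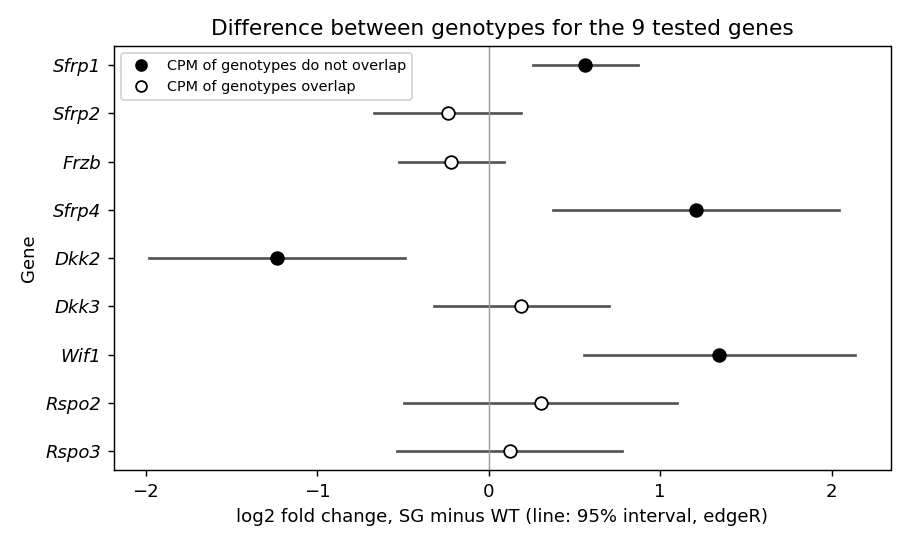
Log2 fold change (SG minus WT) of the 9 tested genes, with the 95% interval of edgeR's test as a line. Filled points mark genes whose CPM did not overlap between genotypes. Among the 7 genes with enough reads in every line the interval excludes 0 for Sfrp1 and Dkk2, Sfrp4 and Wif1 were testable only through their SG lines, and none of the 9 passed after adjustment.

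Among the Dickkopf genes, Dkk2, an LRP-binding Wnt modulator, had the widest difference in the group apart from the scarce Wif1. The gene (ENSMUSG00000028031) spans chr3:132085292-132180304 on the plus strand of GRCm38, and its exons overlap no other gene's. It was counted at 87.2 CPM in SG1, 51.5 in SG2 and 30.04 in SG3, and at 143 CPM in WT3, 123 in WT9 and 131 in WT11. Every SG line lay below every WT line, and the SG lines differed among themselves far more than the WT lines did. The mean was 56.3 ± 28.9 CPM in SG and 132 ± 9.8 CPM in WT (SD, n = 3), with a fitted ratio of 2.35 in favour of WT. In edgeR the log2 fold change was -1.23 (SE 0.32, 95% interval -1.98 to -0.49, adjusted p = 0.11), so the difference missed the threshold. Among 11509 genes averaging a log2 CPM of 1 or more, 99.5% had a smaller SD of log2 CPM within SG lines than Dkk2, and 74.6% had a smaller SD within WT lines.

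Among the fits with a count filter, Dkk2 passed only where SG1, the SG line nearest to the WT level, was left out. Leaving out that line widens the fitted difference by construction. Without SG1 the log2 fold change was -1.70 (edgeR adjusted p = 0.00795), where 579 of 16401 genes passed. With WT9, the other line with Xist, also left out it was -1.74 (edgeR adjusted p = 0.00722), where 703 of 16124 genes passed. With all lines 306 of 16068 genes passed. Without SG3 the log2 fold change of Dkk2 was -0.93 (edgeR adjusted p = 0.0806). Between the lines with Xist, SG1 had 0.708 times the Dkk2 level of WT9. With all 6 lines and no count filter Dkk2 also passed (edgeR adjusted p = 0.0026), where 959 of 28807 genes passed. Its log2 fold change lay between -1.74 and -0.93 in all 17 alternatives. Summed adipocyte markers lay lower in SG (31.7 to 48.8 CPM) than in WT lines (54.6 to 68.6 CPM), with 0 of 4 tested members past the threshold. The sum was carried by Lpl (39.6, 29 and 22.5 CPM in SG against 54.7, 51.5 and 41.5 CPM in WT). Fabp4 was also lower in SG, whereas Pparg and Cebpa overlapped between genotypes (log2 fold changes 0.16 and -0.12). The defining markers Adipoq and Plin1 had 2 reads or fewer in each line. Neural and glial markers summed to 63.7 to 70.5 CPM (SG) and 77.02 to 83.5 CPM (WT), with 0 of 6 tested past the threshold. Tubb3 and Map2 carried that sum, and Elavl4 went the other way (log2 fold change 0.79). The part of these cell types in the Dkk2 result was not tested.

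Dkk3, the divergent Dickkopf, showed no such separation. The gene (ENSMUSG00000030772) spans chr7:112116017-112159057 on the minus strand, with no exon overlap. Its levels were 78.03, 97.8 and 149 CPM in SG against 88.6, 84.9 and 111 CPM in WT. SG3 was highest and SG1 lowest of all lines, with every WT line between them. Its log2 fold change was 0.19 (SE 0.22, 95% interval -0.32 to 0.70, adjusted p = 0.74 in edgeR), and without SG3 it was -0.11 (adjusted p = 0.75). Within the SG genotype, the line lowest in Dkk2 was thus the highest in Dkk3. Per length, Dkk3 was 5.46 times Dkk2 in SG3, 2.09 times in SG2 and 0.987 times in SG1, and 0.685, 0.761 and 0.935 times in WT3, WT9 and WT11. Each WT line held more Dkk2 than Dkk3 on this scale, and SG2 and SG3 did not. The summed level of both was 46.8, 43 and 52.4 RPKM in SG against 64.9, 58.5 and 68.3 RPKM in WT.

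**Figure D3:**
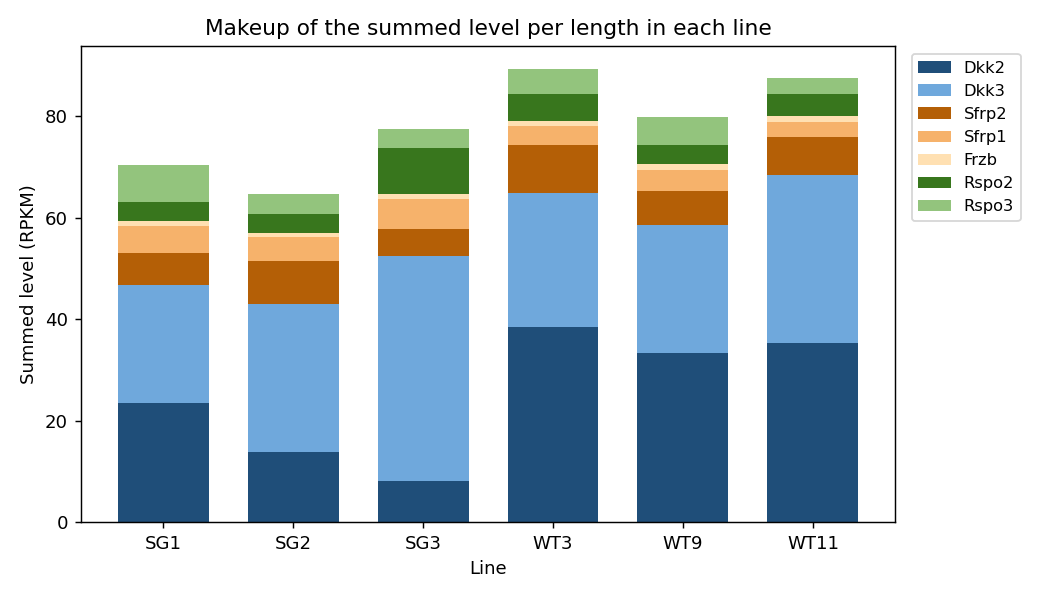
Summed level per length (RPKM) of the 7 better-expressed genes in each line, stacked by gene. The Dkk2 layer takes 10.4% of the group's summed level in SG3, 21.4% in SG2 and 33.3% in SG1, and between 40.3% and 43.03% in the WT lines, while the Dkk3 layer takes 56.9% in SG3.

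Sfrp1, a Wnt-binding antagonist, had higher values in each SG line. The gene (ENSMUSG00000031548) spans chr8:23411502-23449632 on the plus strand, with no exon overlap. It stood at 23.9, 20.1 and 26.1 CPM in SG against 16.4, 17.9 and 13.1 CPM in WT. Each SG line lay above each WT line, with the nearest pair being SG2 and WT9. The mean was 23.4 ± 3.04 CPM in SG and 15.8 ± 2.41 CPM in WT (SD, n = 3), a fitted ratio of 1.48. Fitted log2 fold change was 0.56 (SE 0.13, 95% interval 0.26 to 0.87), and edgeR's adjusted p of 0.0788 missed the threshold. It passed in DESeq2 (adjusted p = 0.000822) and with no count filter (adjusted p = 0.00335), and missed it in the other 15 of 17 alternatives. Over all 17 the log2 fold change lay between 0.45 and 0.66. Between the lines with Xist, SG1 had 1.34 times the Sfrp1 level of WT9.

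Sfrp2, a close relative of Sfrp1, did not separate the genotypes. Its levels were 13.3, 18.4 and 11.5 CPM in SG against 20.4, 14.6 and 16.1 CPM in WT. SG2 lay among the WT lines, and SG1 and SG3 lay below them. In edgeR the log2 fold change was -0.24 (SE 0.18, 95% interval -0.67 to 0.19, adjusted p = 0.6). Per length, Sfrp1 was 0.882, 0.54 and 1.12 times Sfrp2 in SG against 0.395, 0.6 and 0.402 times in WT. SG3 was the one line with more Sfrp1 than Sfrp2. Sfrp2 shares exon positions with Gm26771 on the other strand, which had between 1 and 6 reads a library.

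Frzb, a Frizzled-related antagonist known from cartilage, had the smallest ratio of highest to lowest line among the 9 tested genes. It was at 3.28, 2.93 and 3.25 CPM in SG against 3.12, 3.98 and 3.88 CPM in WT. WT3 lay among the SG lines, and its highest line exceeded the lowest 1.36-fold. Its log2 fold change was -0.22 (SE 0.13, 95% interval -0.52 to 0.09, adjusted p = 0.5 in edgeR). Its window is the one with the TCF/LEF core shown above, which lies inside the gene as counted. Cartilage and bone markers summed to 91.7 to 199 CPM (SG) and 70.5 to 93.5 CPM (WT). The SG3 sum was carried by Col2a1, and without that gene the sums were 71 to 79.6 CPM (SG) and 66.4 to 73.7 CPM (WT). The largest remaining marker, Runx2, was lower in SG (38.8 to 39.6 against 41.5 to 48.2 CPM). Acan (11.8, 18 and 13.3 CPM in SG against 3.6, 7.49 and 7.81 CPM in WT) was higher. Sox9 was also higher in SG (19.7 to 21.5 against 17.02 to 19.3 CPM). Of the 5 tested cartilage and bone markers, 0 passed the threshold.

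Sfrp4 and Wif1, both Wnt-binding antagonists, had few reads. Sfrp4 had 15, 20 and 26 reads in SG against 7, 13 and 6 in WT. Wif1 had 11, 14 and 14 reads in SG against 3, 6 and 6 in WT. For both, every SG line lay above every WT line in CPM, as for 10.0% of all tested genes. Both entered the test only through their SG lines, a selection that favours a higher SG level. From summed reads, the SG level was 2.32 times the WT level for Sfrp4 (95% exact binomial interval 1.44 to 3.83) and 2.57 times for Wif1 (1.39 to 5.02). These intervals cover counting error only and not the spread between embryos. With that spread in edgeR's test, the log2 fold change was 1.21 for Sfrp4 (SE 0.36, adjusted p = 0.15) and 1.35 for Wif1 (SE 0.34, adjusted p = 0.1). Neither passed in any of the 16 alternatives that could test it, and both were untested under the stricter count filter.

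The R-spondins, which enhance Wnt signalling, each had 1 SG line apart from the others. Rspo2 (ENSMUSG00000051920, chr15:43020811-43170818, minus strand), an R-spondin of limb and skeletal muscle development, was at 29.8 CPM in SG3, 12.3 in SG1 and 12.2 in SG2, and at 17.6, 12.3 and 14.2 CPM in WT3, WT9 and WT11. SG3 was the highest of the 6 lines, and SG1 and SG2 were at or below the lowest WT line. Fitted log2 fold change was 0.30 (SE 0.34, 95% interval -0.49 to 1.10, adjusted p = 0.73 in edgeR), and without SG3 it was -0.26 (adjusted p = 0.44). SG3 also held the highest Dkk3 level and the highest summed macrophage markers. Of the cartilage and bone markers Col2a1 was highest in SG3, at 126 CPM against 4.14 to 48.03 CPM in the other 5 lines, whereas the other abundant ones were not (Acan and Sox9 were highest in SG2, Runx2 in WT11). The part of these cells in the SG3 values was not tested.

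Rspo3 (ENSMUSG00000019880, chr10:29452416-29535867, minus strand), an R-spondin with a role in vascular and placental development, was at 22.5 CPM in SG1, 12.3 in SG2 and 11.7 in SG3, and at 15.4, 17.1 and 10.06 CPM in WT3, WT9 and WT11. Within each genotype the line with Xist (SG1 and WT9) was the highest, a pattern seen after the values were known and in 1 line a genotype. In edgeR the log2 fold change was 0.12 (SE 0.28, 95% interval -0.53 to 0.78, adjusted p = 0.88), and it was -0.24 without SG1 (adjusted p = 0.68). Per length, Rspo3 was 1.97, 1.09 and 0.424 times Rspo2 in SG against 0.946, 1.5 and 0.764 times in WT. The spread within SG lines was wide for both, with 99.4% of the 11509 genes having a smaller SD of log2 CPM than Rspo2 and 98.3% a smaller one than Rspo3. It was also wide within WT lines, where 94.1% had a smaller SD than Rspo2 and 97.6% than Rspo3. Rspo3 shares exon positions with Gm48159 on the other strand, which had 0 reads in every library.

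**Figure D4:**
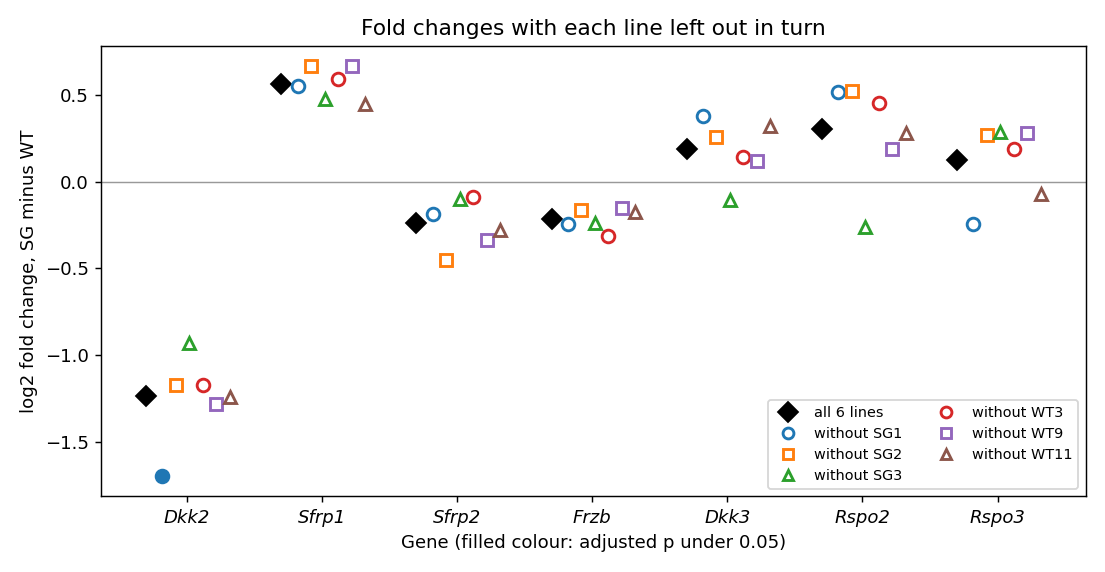
Log2 fold change (SG minus WT) of the 7 better-expressed genes with all 6 lines (black) and with each line left out in turn (coloured). Dkk2 stays below 0 and Sfrp1 above 0 throughout, Dkk2 without SG1 is the one filled coloured point (adjusted p = 0.00795), and Dkk3, Rspo2 and Rspo3 cross 0 when 1 line is left out.

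The lines in which these genes vary were not the same for each gene. Over the 6 lines, log2 CPM of Dkk2 correlated with that of Sfrp1 at Pearson r = -0.78 and with that of Dkk3 at -0.68, and Dkk3 with Rspo2 at 0.82 and with Rspo3 at -0.77. Sfrp1 and Sfrp2 had r = -0.64, and Rspo2 and Rspo3 -0.39. These values describe 6 libraries that share the difference between genotypes and, for Dkk3 and Rspo2, the high value of SG3.

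For the 3 genes of the group with the smallest unadjusted p, the most similar other genes over the 6 lines were looked up among those averaging a log2 CPM of 1 or more. The genes most like Dkk2 were Ndst3, a heparan sulfate sulfotransferase gene (r = 0.998), Siglecg, a sialic acid receptor gene (r = 0.995), and the orphan receptor gene Gpr149 (r = 0.995). Gpr149 had the same layout as Dkk2, with 21.02, 14.2 and 8.47 CPM in SG against 40.1, 35.3 and 36.5 CPM in WT. Ndst3 (chromosome 3, 123526166 to 123690853) and Gpr149 (chromosome 3, 62529077 to 62605140) lie on the same chromosome as Dkk2 (chromosome 3, 132085292 to 132180304), and Siglecg on chromosome 7. The share of chromosome 3 among all similar genes was not counted, and a part of position in the likeness was not tested. Among 11010 genes compared, 384 had r above 0.9 with Dkk2 and 251 with Sfrp1, so such values were common over 6 lines. The genes most like Sfrp1 were Sec31a, of vesicle transport (r = 0.995), Hyls1 (0.992) and Gfpt1, of hexosamine synthesis (0.988), and their log2 fold changes were 0.10, 0.08 and 0.12. For Wif1, which had few reads and was testable only through its SG lines, they were Cttn (0.994), Sim2 (0.989) and Msantd2 (0.988), and these likenesses rest on a gene selected for being high in SG. Of these 9 similar genes Sim2, a transcription factor gene, was the one past the threshold, at 55.8, 93.9 and 121 CPM in SG against 9.84, 15.4 and 19.4 CPM in WT (a log2 difference of 2.59, SE 0.32, adjusted p = 0.0158 in edgeR).

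Other Wnt genes that passed the threshold were all lower in SG lines. Of 8 tested other secreted or surface Wnt regulators (18 listed), 2 fell and 0 rose, and 4 had an unadjusted p under 0.05. Over all tested genes 1.10% passed as lower and 0.809% as higher, and 15.5% had an unadjusted p under 0.05. Apcdd1, a membrane-bound Wnt inhibitor that is also a Wnt target, was at 16.2, 17.3 and 13.2 CPM in SG against 36.1, 23.9 and 38.7 CPM in WT (a log2 difference of -1.08, SE 0.18, adjusted p = 0.0322 in edgeR). Tpbg, whose product inhibits Wnt signalling at the membrane, was 1.25-fold lower in SG lines (48.3 ± 1.65 against 60.6 ± 1.08 CPM, n = 3, edgeR adjusted p = 0.013). The median log2 fold change of the 8 was -0.24. Relatives of the group were scarce: Dkk1 stood between 0.0342 and 0.26 CPM and Rspo1 between 0.2 and 0.58 CPM.

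Of 21 tested receptors and coreceptors, 2 fell and 0 rose, against 1.90% of all tested genes passing in either direction, and the median log2 fold change was 0.06. An unadjusted p under 0.05 was found for 9 of the 21, against 15.5% of all tested genes. DESeq2 called 6 of them, 3 higher and 3 lower in SG, where it called 5.77% of all tested genes. Genotypes did not overlap for 4 with higher and 3 with lower values in SG, against 10.0% and 11.2% of all tested genes. Ror2, a receptor of Wnt5a, was 1.23-fold lower in SG lines (32.7 ± 1.44 against 40.08 ± 0.667 CPM, n = 3, edgeR adjusted p = 0.0241). Ptk7, a pseudokinase coreceptor of planar polarity signalling, was 1.38-fold lower (232 ± 27.3 against 321 ± 22.9 CPM, n = 3, edgeR adjusted p = 0.0437). The R-spondin receptor gene Lgr4 was at 35.9 to 45 CPM (SG) and 36.8 to 38.9 CPM (WT), and Lrp6, the coreceptor bound by Dickkopf proteins, at 95.8 to 105 and 89.3 to 95.5 CPM. Lgr4 had a log2 fold change of 0.03 (SE 0.09) and Lrp6 one of 0.13 (SE 0.05), neither past the threshold.

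Of 12 tested Wnt ligands, 0 passed in edgeR, with 5 at an unadjusted p under 0.05 (15.5% of all tested genes), 3 calls in DESeq2 (5.77%) and 1 in limma-voom (2.03%). The 2 with the smallest p were Wnt7a, at 0.171 ± 0.101 CPM in SG against 0.635 ± 0.049 CPM in WT (adjusted p = 0.0545), and Wnt7b, at 0.738 ± 0.276 and 1.82 ± 0.611 CPM (adjusted p = 0.11, n = 3, both edgeR). Wnt7a, with 8, 18 and 5 reads in SG against 34, 42 and 35 in WT, was testable through its WT lines. Of 13 tested beta-catenin targets, 1 fell (Apcdd1) and 0 rose, with a median log2 fold change of -0.12, against 1.10% and 0.809% of all tested genes. An unadjusted p under 0.05 was found for 5 of the 13 (15.5% of all tested genes), and DESeq2 called 4, all lower (5.77% of all tested genes). Genotypes did not overlap for 4 with lower and 0 with higher values in SG, against 11.2% and 10.0% of all tested genes. Axin2, a negative-feedback target of beta-catenin, was at 2.17, 1.99 and 2.21 CPM in SG against 4.3, 2.92 and 4.16 CPM in WT (edgeR adjusted p = 0.0555). All 4 of the calls named here (Apcdd1, Tpbg, Ror2 and Ptk7) were lost without SG2, WT3 or WT11, with adjusted p between 0.0641 and 0.187. Over all genes, 3 passed without SG2, 24 without WT3 and 29 without WT11, against 306 with all lines, so most calls were lost there. Apcdd1 (adjusted p = 0.0665) and Ptk7 (0.088) were also lost without SG3, and under the robust prior (0.0831 and 0.0648), all in edgeR. Ptk7 was lost under the stricter count filter (edgeR adjusted p = 0.051) and Ror2 without SG1 and WT9 (0.0514). At a minimum fold of 1.5, where 8 of 16068 genes passed, all 4 were lost. For Tpbg, Ror2 and Ptk7 that outcome was fixed in advance, because their fitted folds were below 1.5. With any 1 line left out the log2 fold change ran from -1.26 to -0.94 for Apcdd1, from -0.35 to -0.30 for Tpbg, from -0.32 to -0.26 for Ror2 and from -0.57 to -0.41 for Ptk7.

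**Figure D5:**
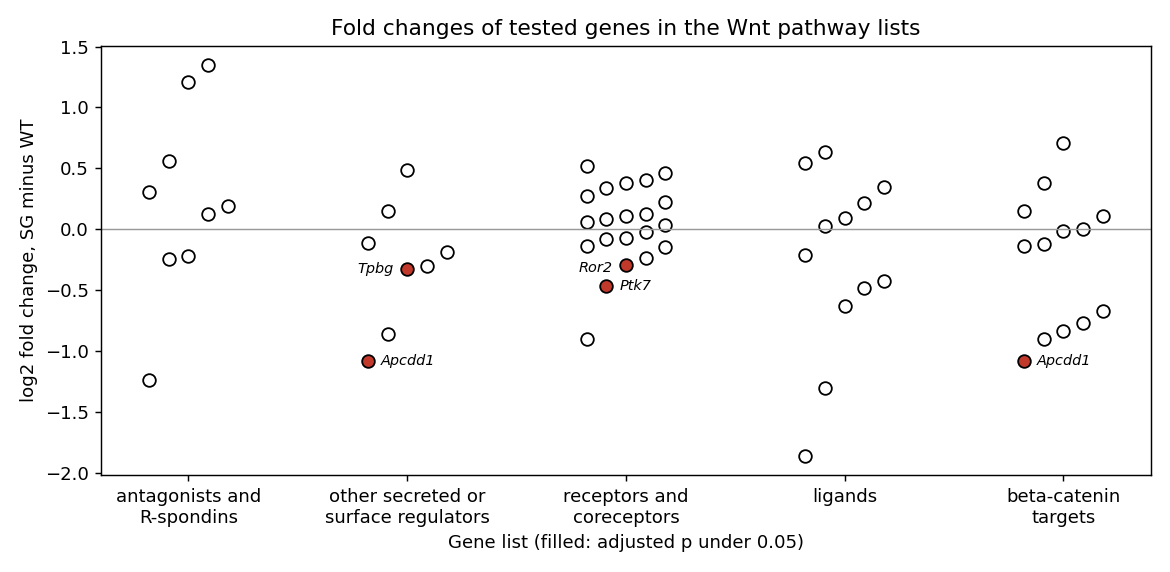
Log2 fold change (SG minus WT) of each tested gene in the group and in the 4 other Wnt lists, with filled points past the threshold. The 9 genes of the group run from -1.23 (Dkk2) to 1.35 (Wif1) with none filled, and the filled points elsewhere are Apcdd1 (in 2 lists), Tpbg, Ror2 and Ptk7, all below 0.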

How the data were processed

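Poly(A)-selected RNA of 6 lines was analysed, 3 per genotype. The submitters' processing notes name Trimmomatic 0.36, STAR 2.5.2b, featureCounts, Subread 1.5.2, DESeq2 and the GRCm38 build, without order or settings. The deposited files hold raw read counts per gene and gene lengths, per the file headers. As for annotation release, strand setting and multimapping, they are not given in the sources used here, and genes with antisense overlap are uncertain. Symbols came from GENCODE M21 (GRCm38).

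Genes were kept by filterByExpr at its defaults (edgeR 4.0.16, R 4.3.3), scaled by TMM and compared between genotypes by the 2-sided quasi-likelihood test with no covariate and Benjamini-Hochberg adjustment over 16068 genes (threshold 0.05). SE was taken as the size of the log2 change over the root of F. CPM use TMM-scaled library sizes, and RPKM divide them by the deposited gene length. Correlations and SDs of log2 CPM use a prior count of 2. Fits were tested on simulated data. DESeq2 1.42.0 and limma-voom (limma 3.58.1), other scalings and filters, and fits without single lines were alternatives. The genes of the group, the lists and the tests were chosen with earlier results of these data known. Genes named are the whole group, members of each list past the threshold or else the 2 with the smallest p, the 3 most similar genes (average log2 CPM of at least 1) of the 3 smallest-p genes of the group, and the targeted genes. Others (Dkk1, Rspo1, Lgr4, Lrp6, Axin2, Thy1, Col2a1, Acan, Sox9, Runx2, Adipoq, Plin1, Xist and those in the closing section) were named after their values were seen. So were Lpl, Fabp4, Pparg, Cebpa, Tubb3, Map2 and Elavl4.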

Additional observations from a re-analysis of the deposited data

How the results depend on the processing

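Sfrp4 and Wif1 had few reads and Sfrp5 none, so depth limits what can be said of these. The fitted direction was the same in all alternatives for Dkk2, Sfrp1, Sfrp2, Frzb, Sfrp4 and Wif1. It reversed for Rspo3 without SG1 (log2 fold change -0.24), without WT11 (-0.073) and without SG1 and WT9 (-0.083), and for Dkk3 (-0.11) and Rspo2 (-0.26) without SG3. With 1 line left out it ran from -0.24 to 0.288 for Rspo3, from -0.11 to 0.378 for Dkk3 and from -0.26 to 0.523 for Rspo2. Causes were not tested. With 1 line left out in turn, calls ranged from 3 (without SG2) to 579 (without SG1) over all genes, where 306 passed with all lines, with 24 without WT3, 29 without WT11 and 460 without WT9. They ranged from 0 to 1 in the group (1, Dkk2, without SG1) and 0 to 2 among other secreted regulators. The ranges were 0 to 4 among receptors, 0 to 1 among ligands and 0 to 2 among beta-catenin targets. The 4 receptors, called without WT9, were 2 higher and 2 lower in SG. With no count filter more genes were tested, and calls were 959 of 28807 over all genes and 2 of 9 in the group (Sfrp1 and Dkk2). They were 4 of 18 other secreted regulators, 6 of 22 receptors, 3 of 17 ligands and 4 of 14 targets. DESeq2 gave 927 of 16068, 1 in the group, 6 receptors, 3 ligands and 4 targets. With no count filter and in DESeq2 alike, receptors were 3 higher and 3 lower in SG, and ligands 1 higher and 2 lower. At a minimum fold of 1.5 there were 8 over all genes and 0 secreted regulators, receptors and targets. Without SG1 and WT9 there were 703 of 16124, 1 in the group (Dkk2), 3 receptors (2 higher and 1 lower in SG), 1 ligand and 3 targets. The robust prior gave 1 secreted regulator, 1 receptor and 0 targets, the stricter filter 1 receptor, limma-voom 1 ligand, and Xist as a covariate 3 targets. No paired analysis was made, because the labels give no litter or other pairing of SG with WT lines.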

Other observations

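Some transcripts stood apart in a few lines, and these were singled out after their values were seen. Krt5, a keratin of basal epithelium, had 162 reads in SG1, 107 in SG2 and 0 in SG3, WT3, WT9 and WT11, and it was not tested. Summed epithelial markers were 46.8 CPM in SG1 and 46.7 CPM in SG2, against 12.4 to 26 CPM in the other lines. Krt14, Krt18 and Cldn4 were also highest in SG1 and SG2, whereas Epcam, Krt8 and Cdh1 did not share that layout. Of the 5 tested epithelial markers, 0 passed the threshold. Sox2, a transcription factor of neural and other progenitors, stood at 4.08 CPM in WT3 and 3.9 CPM in WT11, and between 0.217 and 0.596 CPM in WT9 and the SG lines. Sostdc1, a secreted BMP and Wnt antagonist, had 1 read in each SG line against 7, 20 and 5 reads in WT3, WT9 and WT11, too few to be tested.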
